A study of Rattus norvegicus with 12 samples.

Results

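A block of 57 listed genes on rat chromosome 7, which runs from Appl2 to Mettl1, had lower array signals in CRI-G1-RS cells for most of its measured members, with CRI-G1-RR cells as the comparison. The members were chosen by their place in that stretch and selected on the signal difference between the lines, so that difference is a description for them: their calls in a fit over all probe sets are counted once, beside the share of all genes, and support nothing. CRI-G1 is a rat insulinoma line that came from an islet cell tumour. CRI-G1-RS is a rotenone sensitive subclonal line isolated from it, and CRI-G1-RR is the rotenone resistant parental line (rotenone inhibits complex I of the mitochondrial respiratory chain). The cells received no treatment, and total RNA of 6 passages of each line, collected in pairs, was hybridized to 12 Affymetrix arrays with 31099 probe sets. CRI-G1-RS cells are 1 isolate, so what belongs to rotenone sensitivity and what belongs to this isolate cannot be told apart, and p-values measure only the spread between passages of these 2 lines.

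Genes that lie side by side on a chromosome usually have unrelated functions, and many are transcribed from a promoter of their own. The amount of transcript that a cell holds depends on the number of gene copies, on how often each copy is transcribed and on how long the transcript lasts, and an array measures only the amount. The members of the block are a mixture of this kind. They include proteins that sort cargo in endosomes, factors that process and translate RNA, parts of the nuclear envelope, chromatin proteins, ubiquitin enzymes, signalling adaptors, cell surface and matrix proteins, and metabolic enzymes.

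Of the 57 members, 51 had at least 1 probe set annotated with a single gene symbol, and these genes had 87 probe sets among the 31099. Each gene was represented by its brightest probe set, which gave 14218 genes over the array. Of the 51 members, 41 were bright, with a mean signal of 100 or more over the 12 arrays, and 10 were dim. Irak3 lay just inside that limit with a mean signal of 118.9, and Mon2 lay just outside it with 99.8. Ntn4, Srgap1, Nt5dc3, Nav3, Metap2 and Amdhd1 had no probe set of a single symbol and were not analysed.

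The 12 arrays formed an even set. Signals of array pairs correlated at 0.979 to 0.987 within CRI-G1-RS and 0.980 to 0.987 within CRI-G1-RR, and at 0.952 to 0.965 between the lines. In limma, 9860 probe sets (31.7%) differed between the lines at an adjusted p of 0.05. All 9 measured endocrine markers were bright, and their summed signal was 25896 to 29828 in CRI-G1-RS cells and 21974 to 25945 in CRI-G1-RR cells. Gene by gene they differed more than this sum, with log2 differences (CRI-G1-RS minus CRI-G1-RR) from -0.09 (Isl1) to 1.30 (Ins2). No marker of acinar (6 measured), blood (5) or endothelial cells (4) was bright, and summed signals per array lay between 65.2 and 235 in CRI-G1-RS cells and between 68.9 and 211 in CRI-G1-RR cells. Of 6 fibroblast markers only Pdgfra was bright, and the fibroblast sum was 291 to 390 in CRI-G1-RS cells and 218 to 282 in CRI-G1-RR cells. Pdgfra itself had means of 153 in CRI-G1-RS cells and 83.4 in CRI-G1-RR cells. The log2 differences of the other fibroblast markers went in both directions, from -0.29 (Col1a2) to 0.13 (Col3a1). Whether the fibroblast sum has a part in any difference of the block was not tested.

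The bright members were mostly lower in CRI-G1-RS cells, by factors that varied from gene to gene. Their median log2 difference (CRI-G1-RS minus CRI-G1-RR, on log2 of the normalized signal plus 16) was -1.02, with quartiles of -1.35 and -0.62 and a range of -2.56 to 0.49. Over all 8684 bright genes the median was 0.03. In the linear signals, the CRI-G1-RS mean was 48.1% of the CRI-G1-RR mean for the median bright member, and the quartiles were 37.5% and 64.6%. The ratio lay between 30% and 60% for 27 of the 41 bright members, against 451 of the 8684 bright genes (5.19%). A smaller share of cells that express a gene and less RNA per cell cannot be told apart in such bulk samples.

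Of the 41 bright members, 37 passed an adjusted p of 0.05 with lower signals in CRI-G1-RS cells, where 25.2% of all bright genes did so. Plxnc1 and Cpsf6 passed it with higher signals (28.6% of bright genes), and Vezt and Usp15 did not pass it. For 35 bright members, all 6 CRI-G1-RS arrays lay below all 6 CRI-G1-RR arrays after normalization, against 18.7% of bright genes. The log2 difference was below -1 for 22 bright members, against 3.28% of bright genes. Nothing is read from these shares, because the same contrast chose the members.

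**Figure D1:**
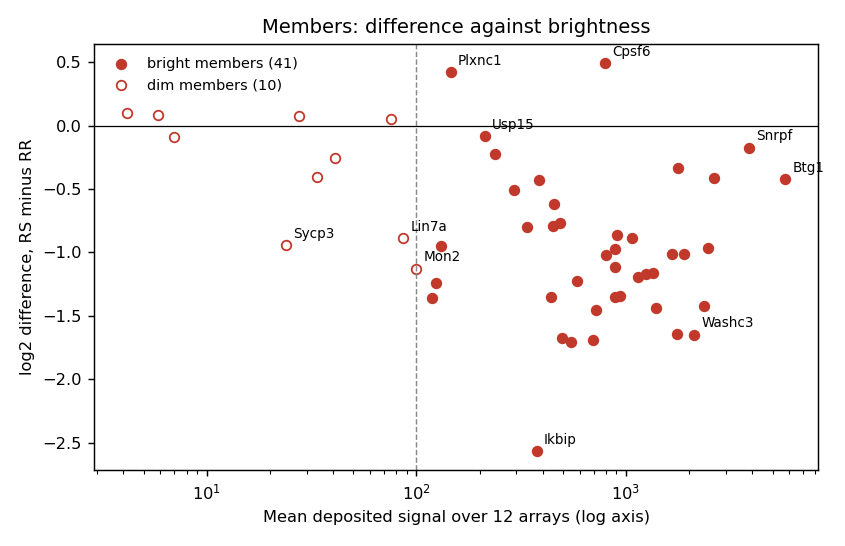
Log2 difference (CRI-G1-RS minus CRI-G1-RR) against the mean signal over the 12 arrays on a log axis, for the 41 bright (filled) and 10 dim (open) members; the broken line is the bright limit of 100. Bright members have a median of -1.02 and dim members of -0.17, and Cpsf6 and Plxnc1 are the only bright members above 0.

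The dim members had a median log2 difference of -0.17, and values ran from -1.13 (Mon2) to 0.10 (Hal). The bright limit was applied to the mean over both lines. Ikbip, Kitlg, Irak3 and Cradd thus counted as bright through CRI-G1-RR cells, with CRI-G1-RS means of 99.2, 67.9, 60.6 and 85.5. Over the 3 dim members with a mean signal of 50 or more the median was -0.89, so the gap between bright and dim members depends on this limit. Of 10 dim members, 4 passed the test with lower signals in CRI-G1-RS cells (7.41% of dim genes did so), and the arrays of the 2 lines were fully apart for 3 of them, Sycp3, Lin7a and Mon2 (3.6% of dim genes). The pseudocount of 16 pulls the log2 difference of a dim probe set towards 0, and with a pseudocount of 1 the median of the dim members was -0.28. The 5 faintest members overlapped between the lines, apart from Sycp3. Hal, Hmga2, Chst11, Sycp3 and Dcn had mean signals of 4.15, 5.82, 6.94, 23.8 and 27.6 over the 12 arrays, and apart from Sycp3 their log2 differences lay between -0.09 and 0.10.

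**Figure D2:**
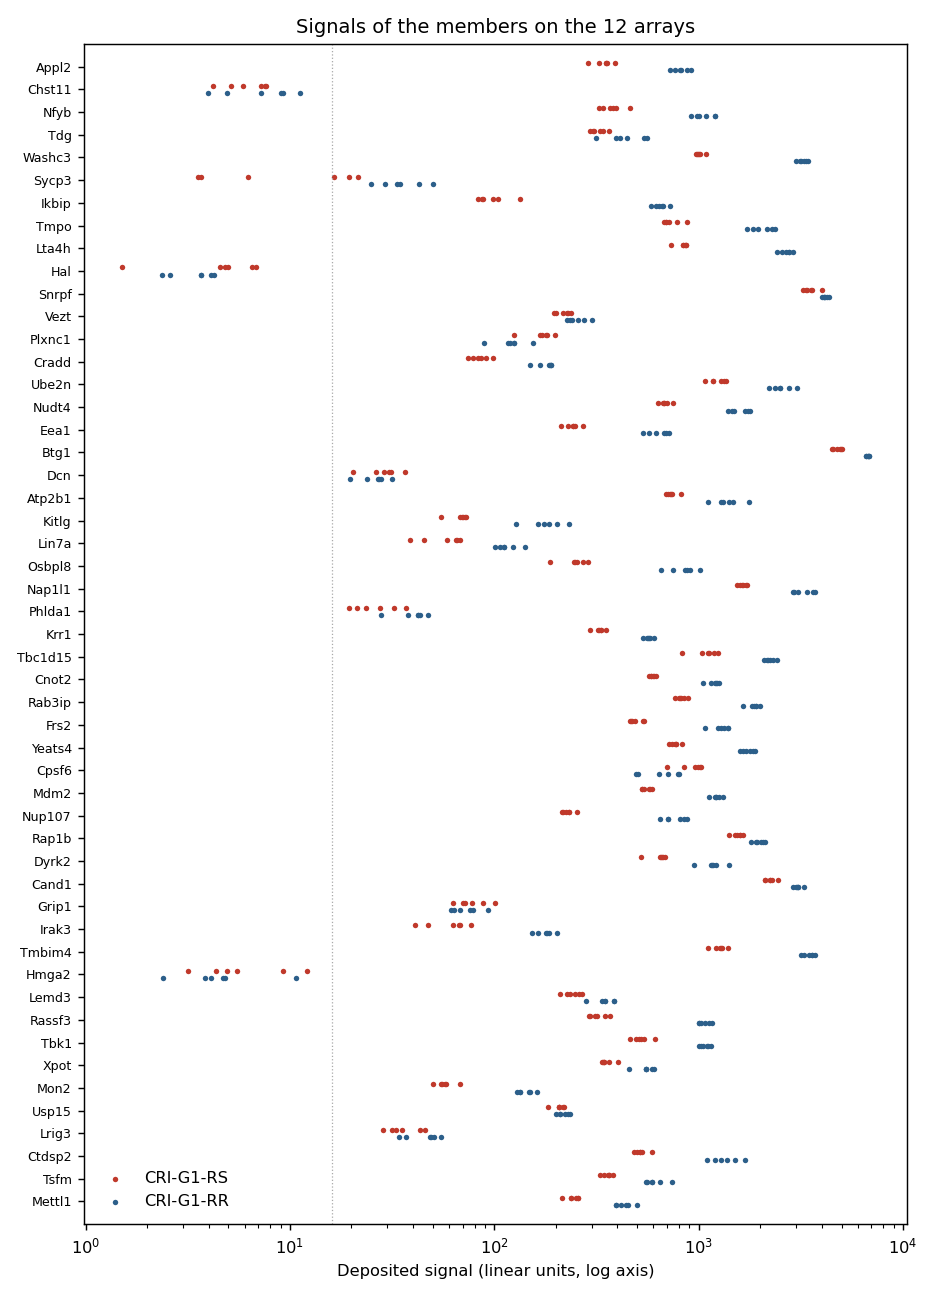
Deposited signal (log axis) of the 51 measured members on each of the 12 arrays, with the genes in chromosome order from top to bottom and CRI-G1-RS above CRI-G1-RR for each gene; the dotted line marks the pseudocount of 16. For most genes the CRI-G1-RS points lie left of the CRI-G1-RR points without overlap, and the lines overlap for Cpsf6, Plxnc1, Usp15, Vezt, Snrpf and Tdg and for the dim genes Chst11, Hal, Dcn, Phlda1, Grip1, Hmga2 and Lrig3.

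The members with the lowest log2 differences were Ikbip, Osbpl8 and Rassf3. Their RefSeq promoter sequences (GRCr8, 250 bases before the annotated start, 5′ to 3′ on the gene's strand) are shown because they allow the starts of these 3 genes to be set side by side. Capitals mark the letters GGGCGG or CCGCCC, the core of the GC box that Sp1 binds, on either strand.
Ikbip (chr7:27466847-27467096, plus strand): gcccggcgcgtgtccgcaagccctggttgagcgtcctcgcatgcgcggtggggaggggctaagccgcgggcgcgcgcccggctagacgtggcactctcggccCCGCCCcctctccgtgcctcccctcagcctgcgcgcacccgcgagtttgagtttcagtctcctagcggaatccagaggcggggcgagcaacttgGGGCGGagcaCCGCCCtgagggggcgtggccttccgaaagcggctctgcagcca
Osbpl8 (chr7:48483009-48483258, plus strand): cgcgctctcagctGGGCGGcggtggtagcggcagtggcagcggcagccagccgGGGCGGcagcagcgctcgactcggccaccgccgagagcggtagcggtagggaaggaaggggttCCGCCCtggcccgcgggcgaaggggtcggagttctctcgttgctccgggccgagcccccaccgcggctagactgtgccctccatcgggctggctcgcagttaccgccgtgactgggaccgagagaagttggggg
Rassf3 (chr7:58886021-58886270, minus strand): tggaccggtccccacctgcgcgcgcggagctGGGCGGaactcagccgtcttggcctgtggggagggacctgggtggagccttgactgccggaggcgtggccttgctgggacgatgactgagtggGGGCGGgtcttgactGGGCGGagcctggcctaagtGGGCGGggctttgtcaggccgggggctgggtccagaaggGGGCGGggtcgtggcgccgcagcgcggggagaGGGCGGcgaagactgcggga
The 3 windows held 72.4%, 72.8% and 72.8% G and C, and carried the GC box letters 3, 3 and 6 times. None of the 3 held CCAAT, the letters to which the NF-Y complex of the member Nfyb binds, or the TATA box letters TATAAA, on either strand. A promoter entry was found for 48 of the 57 members. In windows of 300 bases (250 before and 50 after the start), GGGCGG or CCGCCC occurred in 37 of these 48 (77.1%), in 65.9% of 7358 bright measured genes and in 34.9% of all 27457 promoters. CCAAT or ATTGG occurred in 37.5% of the members, 38.9% of bright measured genes and 37.7% of all promoters. TATAAA or TTTATA occurred in 1 of the 48 members (2.08%), in 5.93% of bright measured genes and in 14.3% of all promoters. A match of letters is not evidence of a bound factor.

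In what follows, a signed value in brackets after a gene or its signals is its log2 difference, CRI-G1-RS minus CRI-G1-RR. Among the members, endosome and vesicle traffic held 9 measured genes. All 6 of its bright genes had log2 differences of -1.02 or lower, with a median of -1.29. Washc3 is a subunit of the WASH complex, which builds actin on endosomes. Its signals were 974, 999.6 and 1084 in CRI-G1-RS cells (lowest, median and highest array), against 3003, 3219.9 and 3415 in CRI-G1-RR cells, so that no CRI-G1-RS array came near a CRI-G1-RR array (log2 difference -1.65). Osbpl8, a lipid transfer protein anchored in the endoplasmic reticulum, had signals of 188, 250.5 and 286 in CRI-G1-RS cells, against 651, 868 and 1013 in CRI-G1-RR cells (-1.70 on the log2 scale). Eea1, which tethers early endosomes before they fuse, gave 213, 243 and 271 in CRI-G1-RS cells, against 536, 647 and 713 in CRI-G1-RR cells (-1.35). Both genes were again separated between the lines. Tbc1d15 stimulates GTP hydrolysis by the late endosomal GTPase Rab7. It had 832, 1122 and 1240.5 in CRI-G1-RS cells, against 2084, 2212 and 2423 in CRI-G1-RR cells (-1.02), with no overlap although 1 CRI-G1-RS array was lower than the rest. The endosomal adaptor Appl2 (-1.22) and the Rab8 exchange factor Rab3ip (-1.16) had differences of a like size.

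The 3 dim genes of the traffic group fell into different places. Mon2, a scaffold of the trans-Golgi network, had 50.3, 56.3 and 67.8 in CRI-G1-RS cells, against 129, 140.2 and 161 in CRI-G1-RR cells (-1.13). Lin7a, a scaffold of polarized membranes, had 38.9, 62.0 and 67.6 in CRI-G1-RS cells, against 101, 112 and 141 in CRI-G1-RR cells (-0.89). In both, all CRI-G1-RS arrays were below all CRI-G1-RR arrays. Grip1, a PDZ scaffold known from glutamate receptor traffic, overlapped between the lines with a log2 difference of 0.06. A second and dimmer probe set of Grip1 had a difference of -1.08 and did not overlap, and the mean of both had -0.51.

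The 8 genes of RNA processing and translation, all of them bright, had a median of -0.69 and ranged from -0.98 to 0.49. Btg1, an antiproliferative protein that works with the CCR4-NOT deadenylase, was the brightest member of the block. Its signals were 4491, 4824 and 5042 in CRI-G1-RS cells, against 6589, 6733 and 6849 in CRI-G1-RR cells, and the lines were fully apart although the log2 difference was only -0.42. Snrpf, a core protein of the spliceosomal small nuclear ribonucleoproteins, had 3249.5, 3478 and 4011 in CRI-G1-RS cells, against 3991, 4123 and 4363 in CRI-G1-RR cells (-0.17). Its highest CRI-G1-RS array overlapped the CRI-G1-RR range. The CCR4-NOT subunit Cnot2 (-0.98), the ribosome assembly factor Krr1 (-0.79), the tRNA methyltransferase Mettl1 (-0.80), the mitochondrial elongation factor Tsfm (-0.76) and the tRNA exporter Xpot (-0.62) were separated between the lines.

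Cpsf6, a subunit of the cleavage factor that helps to place the poly(A) site, was the only gene of that group with a positive value. On its brightest probe set the signals were 702, 979 and 1025 in CRI-G1-RS cells, against 495, 673 and 797 in CRI-G1-RR cells, and the lines overlapped (log2 difference 0.49). The other 4 probe sets of Cpsf6, all of them bright, pointed the other way, with log2 differences of -1.10, -0.73, -0.79 and -0.59 and no overlap between the lines. The sign of the Cpsf6 value thus rested on which of its 5 probe sets was read, and it was -0.54 for their mean. Which transcript each probe set detects was not tested.

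The 3 nuclear envelope genes were all bright and all separated between the lines. Nup107, part of the Y-shaped scaffold of the nuclear pore, had 213, 228 and 252 in CRI-G1-RS cells, against 647, 759 and 875 in CRI-G1-RR cells (-1.68). Tmpo, which encodes the lamina-associated polypeptides, had 677, 704 and 877 in CRI-G1-RS cells, against 1717, 2060.0 and 2359 in CRI-G1-RR cells (-1.44). In both genes the highest CRI-G1-RS array stayed well under the lowest CRI-G1-RR array. Lemd3, a protein of the inner nuclear membrane, had a log2 difference of -0.50 on its brightest probe set and -1.13 on a second bright one.

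Of the 6 measured chromatin and DNA genes, 4 were bright, with a median of -1.07. Nfyb, a subunit of the CCAAT-binding factor NF-Y, had 324, 375 and 460.4 in CRI-G1-RS cells, against 917, 1043 and 1200.1 in CRI-G1-RR cells (-1.45). Nap1l1, a histone chaperone, had 1532, 1636 and 1733 in CRI-G1-RS cells, against 2878, 3239.8 and 3727 in CRI-G1-RR cells (-0.96). Yeats4, a reader of acetylated histones in chromatin remodelling complexes, had 712, 769 and 828 in CRI-G1-RS cells, against 1589, 1741 and 1876 in CRI-G1-RR cells (-1.17). The lines did not overlap in any of the 3 on these brightest probe sets, but they did on a second bright probe set of Yeats4 (-0.62). Tdg, a glycosylase that removes mispaired thymine from DNA, had a log2 difference of -0.43, and its CRI-G1-RS range of 294 to 365 reached into the CRI-G1-RR range of 314 to 558. Sycp3, a protein of the meiotic synaptonemal complex, was dim with 3.53, 11.3 and 21.4 in CRI-G1-RS cells, against 24.8, 33.9 and 49.8 in CRI-G1-RR cells (-0.94). The architectural chromatin protein Hmga2 was close to the bottom of the scale in both lines, and its difference was 0.08.

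The group of ubiquitin enzymes and cell death genes had 8 measured genes, of which the 7 bright ones had a median of -0.95. Tmbim4, a Golgi protein known to inhibit apoptosis, had 1105, 1282 and 1393 in CRI-G1-RS cells, against 3158, 3525 and 3704 in CRI-G1-RR cells (-1.42). Cand1, which exchanges the substrate receptors of cullin ligases, had 2112, 2230.2 and 2435 in CRI-G1-RS cells, against 2882, 3042 and 3286 in CRI-G1-RR cells (-0.41). Both were separated between the lines, but the ratio was 36.5% for Tmbim4 and 73.3% for Cand1. Usp15, a deubiquitinating enzyme, had 183, 207 and 220.3 in CRI-G1-RS cells, against 201, 216 and 234 in CRI-G1-RR cells. Its lines overlapped over most of their range, and its log2 difference of -0.08 was among the smallest in size of the bright members.

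Mdm2, the ubiquitin ligase that keeps p53 low, had a log2 difference of -1.11 with no overlap, and its other 2 probe sets gave -1.50 and -1.32. The ubiquitin-conjugating enzyme Ube2n (-1.01), the death domain adaptor Cradd (-0.95) and the kinase Dyrk2 (-0.86) were likewise separated on their brightest probe sets. The other bright probe sets of Dyrk2 had -0.84 and -1.02 without overlap and -0.16 with overlap. Phlda1, a gene linked to apoptosis, was dim, overlapped between the lines and had -0.41.

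All 7 signalling genes were bright and had no overlap between the lines, with a median of -1.35 and a range of -2.56 to -0.33. Ikbip, named for its interaction with the kinase IKK beta, had the lowest ratio of all members. Its signals were 83.7, 93.5 and 133 in CRI-G1-RS cells, against 587, 650.0 and 722 in CRI-G1-RR cells (-2.56), and the CRI-G1-RS mean was 15.3% of the CRI-G1-RR mean. Rassf3, a protein with a Ras association domain, had 291, 314 and 369 in CRI-G1-RS cells, against 999, 1051 and 1159 in CRI-G1-RR cells (-1.69). Frs2, the adaptor that links fibroblast growth factor receptors to Ras, had 463, 480.2 and 539 in CRI-G1-RS cells, against 1069, 1308 and 1397 in CRI-G1-RR cells (-1.35). Each of these genes had CRI-G1-RS arrays that varied much less among themselves than they differed from CRI-G1-RR.

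Irak3, an inhibitory kinase of Toll-like receptor signalling, was the faintest bright member. Its signals were 41.1, 65.3 and 77.1 in CRI-G1-RS cells, against 153, 179.7 and 202 in CRI-G1-RR cells (-1.36). Ctdsp2, a small phosphatase of the RNA polymerase II tail, had 482, 517 and 589.5 in CRI-G1-RS cells, against 1102, 1332 and 1684 in CRI-G1-RR cells (-1.34). Rap1b, a Ras-like GTPase, had 1407, 1563 and 1657 in CRI-G1-RS cells, against 1803, 1980.4 and 2109 in CRI-G1-RR cells (-0.33), the smallest difference of the group, yet without overlap. Tbk1, a kinase of innate immune signalling, had a log2 difference of -1.02.

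Of 6 measured surface, matrix and guidance genes, 4 were bright, with a median of -0.55 and values on both sides of 0. Atp2b1, a calcium pump of the plasma membrane, had 693, 727 and 821 in CRI-G1-RS cells, against 1115, 1361 and 1754 in CRI-G1-RR cells (-0.89) with no overlap. Kitlg, the ligand of the receptor Kit, was separated on its brightest probe set (-1.24), whereas its other 3 probe sets were dim, with log2 differences of -0.09, -0.57 and 0.13. Vezt, a protein of adherens junctions, had 196, 222 and 237 in CRI-G1-RS cells, against 227, 247 and 301 in CRI-G1-RR cells (-0.22), and the lines overlapped.

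Plxnc1, a semaphorin receptor, had 125, 175 and 198 in CRI-G1-RS cells, against 88.6, 122 and 154 in CRI-G1-RR cells (0.42). Here CRI-G1-RS arrays were the higher ones, with overlap. Its second bright probe set had a log2 difference of 1.58 and was also higher in CRI-G1-RS cells. The matrix proteoglycan Dcn (0.08) and the membrane protein Lrig3 (-0.25) were dim, and both overlapped between the lines.

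Of the enzymes, Lta4h and Nudt4 were bright and separated. Lta4h, which makes leukotriene B4, had 735, 846 and 868 in CRI-G1-RS cells, against 2428, 2722 and 2882 in CRI-G1-RR cells (-1.64). Nudt4, a hydrolase of diphosphoinositol polyphosphates, had 636, 676 and 752 in CRI-G1-RS cells, against 1398, 1580.3 and 1782 in CRI-G1-RR cells (-1.20). Hal, which degrades histidine, and Chst11, a sulfotransferase of chondroitin, lay near the bottom of the scale in both lines, with log2 differences of 0.10 and -0.09.

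Among bright probe sets, the sign of the difference changed with the probe set only for Cpsf6, but its size changed for several members. A second bright probe set gave -0.41 for Nap1l1 and -0.59 for Ube2n, against -0.96 and -1.01 on the brightest ones. Lemd3 went the other way, with -1.13 against -0.50. With the mean of all probe sets of a gene, the median of the bright members was -0.89. Of the 51 measured members, 23 had several probe sets, 59 in all. A second bright probe set was present for 14 of them, which gave 21 further bright probe sets. Of these, 20 had a negative log2 difference, and in 17 all CRI-G1-RS arrays lay below all CRI-G1-RR arrays. The exception with a positive value was that of Plxnc1. Among all 8684 bright genes, 4045 had a negative log2 difference and 18.7% had all CRI-G1-RS arrays below all CRI-G1-RR arrays. Nothing is read from these counts, because the same contrast chose the members.

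The size of the difference changed little along the block. In chromosome order, the median of the bright members was -1.22 from Appl2 to Cradd (11 genes), -1.01 from Ube2n to Tbc1d15 (10), -1.04 from Cnot2 to Cand1 (10) and -0.91 from Irak3 to Mettl1 (10). Neighbours nevertheless differed. Mdm2 (-1.11), Nup107 (-1.68) and Rap1b (-0.33) follow each other among the members, and so do Vezt (-0.22), Plxnc1 (0.42) and Cradd (-0.95). By brightness, the median was -0.79 for 15 members under a mean signal of 500, -1.18 for 16 members from 500 to 1500 and -0.99 for 10 members at 1500 or more.

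**Figure D3:**
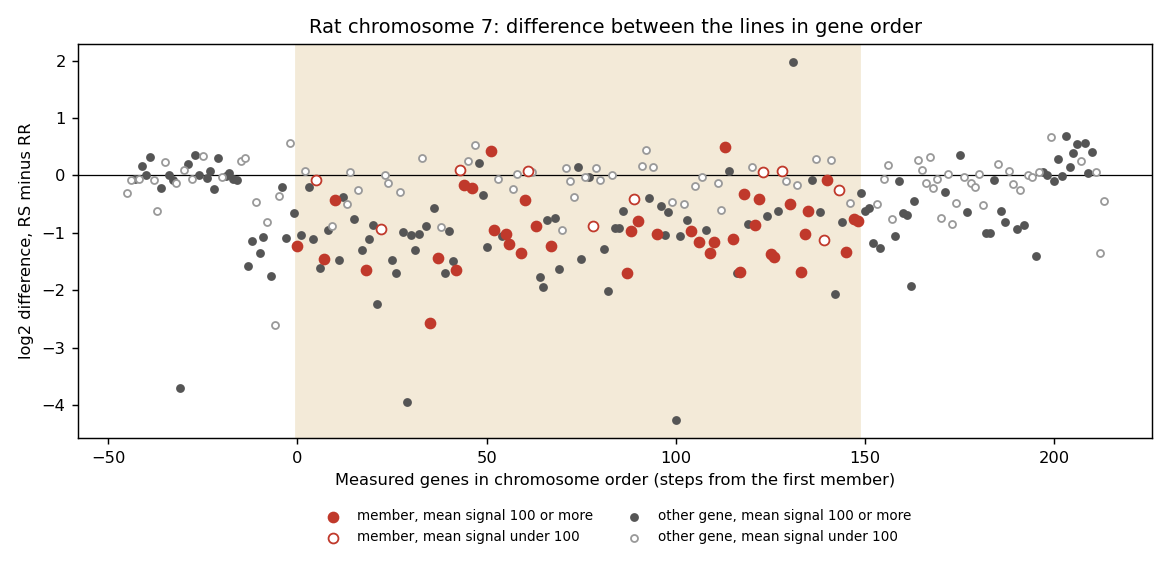
Log2 difference (CRI-G1-RS minus CRI-G1-RR) of measured genes of chromosome 7 in RefSeq gene order, with members in red, other genes in grey, dim genes as open points and the span of the block shaded; the horizontal axis counts genes from the first member and is not a distance. The bright members and the unlisted bright genes between them lie around -1, and genes farther out on both sides lie around 0.

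The list did not take up the whole stretch. RefSeq placed 98 further measured genes between Appl2 and Mettl1, of which 59 were bright and 39 dim. The 59 bright ones had a median log2 difference of -0.97 (range -4.26 to 1.98), and the 39 dim ones had a median of -0.06. Lowest were Tspan8, a tetraspanin, with signals of 137, 196 and 253 in CRI-G1-RS cells, against 3683, 4013 and 4629.8 in CRI-G1-RR cells, and Nr1h4, the bile acid receptor, with 5.95, 7.30 and 14.0 in CRI-G1-RS cells, against 289, 371 and 382 in CRI-G1-RR cells. Chpt1, an enzyme of phosphatidylcholine synthesis, had 271, 293 and 381 in CRI-G1-RS cells, against 1390.3, 1511 and 1606 in CRI-G1-RR cells. The log2 differences of these 3 genes were -4.26, -3.94 and -2.25, and that of the monocarboxylate transporter Slc16a7 was -2.06. The bright limit again used the mean over both lines. Of the genes named here, Nr1h4 and Slc16a7 thus counted as bright only through CRI-G1-RR cells, with CRI-G1-RS means of 8.39 and 30.1. The Nr1h4 signals of CRI-G1-RS cells lay under the pseudocount of 16, so that the size of its difference depended on it (-5.30 with a pseudocount of 1). At the other end was Wif1, a secreted inhibitor of Wnt ligands, with 1276, 1495 and 1706 in CRI-G1-RS cells, against 282, 382 and 446 in CRI-G1-RR cells and a log2 difference of 1.98. Nr2c1, Slc6a15 and Cpm followed with 0.21, 0.15 and 0.08 and overlapped between the lines.

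The genes on either side marked where the lower run ended. These border genes were picked after their values had been seen. Before Appl2, the last gene of the run was Fbxo7, a receptor subunit of an SCF ubiquitin ligase, with a mean of 323 ± 32.6 in CRI-G1-RS cells and 992 ± 78.7 in CRI-G1-RR cells (SD, n = 6 each; log2 difference -1.58). Its outer neighbours Cd320 and Ndufa7 had log2 differences of -0.08 and -0.07. Between Fbxo7 and Appl2, the bright gene Tcp11l2 (-0.21) overlapped between the lines. After Mettl1, bright genes had negative log2 differences as far as the kinase Stk3 with 1 exception, Nab2 (0.36), and Kif5a (-0.10) and Sdc2 (-0.09) were closest to 0. Stk3 had 587 ± 59.3 in CRI-G1-RS cells and 1583 ± 143 in CRI-G1-RR cells (SD, n = 6 each; log2 difference -1.41), and Vps13b and Cox6c beyond it had 0.05 and 0.01. Over the nearest 10 bright genes the median was -1.08 before the block and -0.67 after it, and over the nearest 50 it was -0.00071 and -0.04. The other 458 bright genes of chromosome 7 had a median of -0.02.

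Array by array, the block stood at nearly one level in each line. The median over the bright members of the log2 signal minus the CRI-G1-RR mean was -1.07 to -0.94 on the 6 CRI-G1-RS arrays and -0.08 to 0.07 on the 6 CRI-G1-RR arrays. The unlisted bright genes of the stretch gave -1.06 to -0.90 in CRI-G1-RS cells and -0.03 to 0.05 in CRI-G1-RR cells. The dim members lay between -0.23 and -0.10 on CRI-G1-RS arrays and between -0.06 and 0.06 on CRI-G1-RR arrays. Over all bright genes the values were 0.02 to 0.05 in CRI-G1-RS cells and -0.0035 to 0.0065 in CRI-G1-RR cells. The standard deviation among arrays of 1 line, on the log2 scale, had a median over bright members of 0.10 in CRI-G1-RS cells and 0.13 in CRI-G1-RR cells, and 0.12 in both lines over all bright genes. In CRI-G1-RR cells, replicates 1 to 3 had medians of -0.02, -0.04 and -0.08 over the bright members and replicates 4 to 6 had 0.01, 0.05 and 0.07, a difference that is small beside that between the lines.

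**Figure D4:**
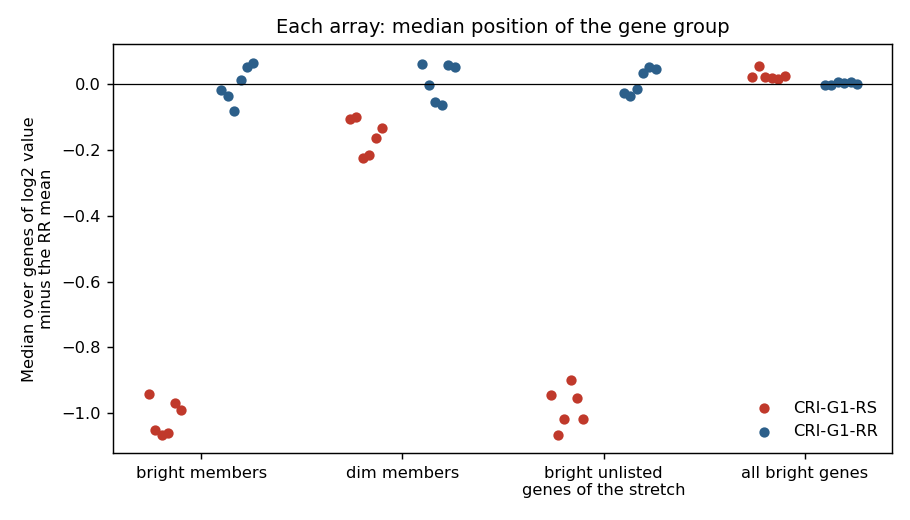
Median over genes of the log2 signal minus the CRI-G1-RR mean, for each of the 6 CRI-G1-RS and 6 CRI-G1-RR arrays, shown for bright members, dim members, unlisted bright genes of the stretch and all bright genes. The CRI-G1-RS arrays lie between -1.07 and -0.94 for bright members and between -1.06 and -0.90 for the unlisted bright genes, and CRI-G1-RR arrays lie near 0.

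Genes that work with the members but lie elsewhere in the genome had no part in the rule that chose the block, although the lists were drawn up with earlier results of these data known and are not independent evidence. Of 177 partner genes on the lists, 163 were measured elsewhere, 12 had no probe set of a single symbol, and Washc4 and Nup37 lay inside the stretch (log2 differences -1.03 and -1.31, without a test). Of the 163, 44 passed an adjusted p of 0.05 in limma with higher signals in CRI-G1-RS cells (27.0%, against 21% of all 14218 genes), 31 with lower signals (19.0%, against 18.3%), and 88 did not pass. Their median log2 difference was 0.03. The partners of the block went in both directions. Bright and dim partners were counted together, and among all bright genes 28.6% were higher and 25.2% were lower. Nothing is read about the partners from these shares.

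**Figure D5:**
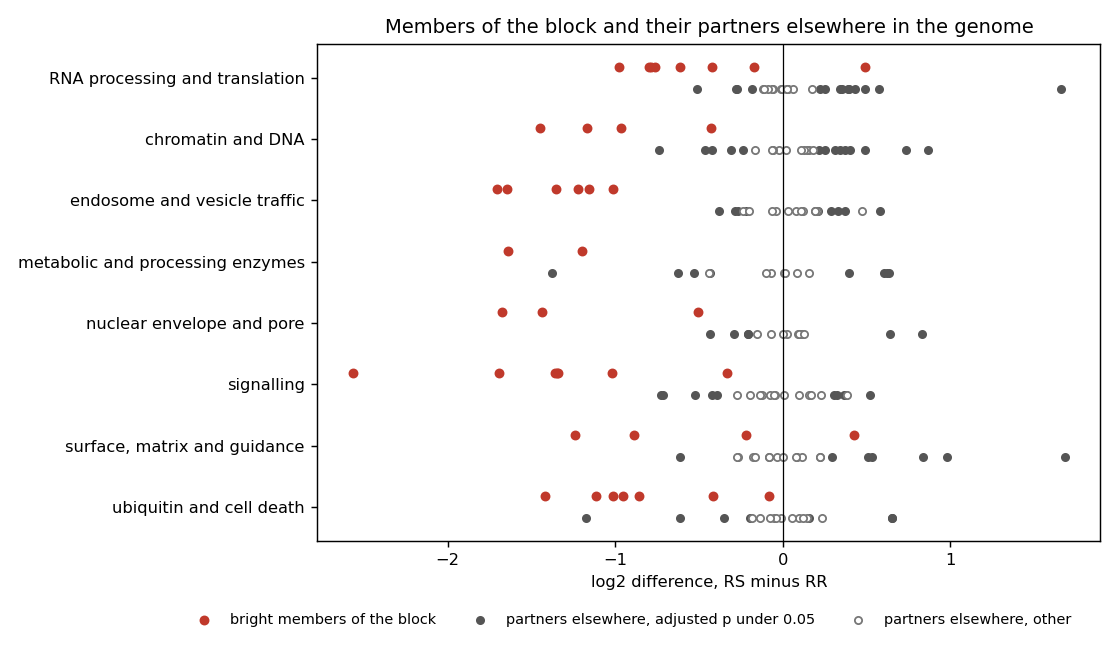
Log2 difference (CRI-G1-RS minus CRI-G1-RR) of the bright members (red) and of the partner genes elsewhere in the genome (filled grey past an adjusted p of 0.05, open otherwise), 1 point per gene, by functional group. Of the 41 bright members 39 lie below 0, and partners lie on both sides of 0 in every group.

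In the traffic list, 5 partners were higher, 4 were lower and 13 did not pass. Washc5, a WASH complex subunit that lies on chromosome 7 outside the stretch, had 1155, 1273 and 1338 in CRI-G1-RS cells, against 713, 853 and 917 in CRI-G1-RR cells (log2 difference 0.58 ± 0.067 SE, limma adjusted p = 2.00e-05). Appl1, the paralogue of Appl2, had 415, 454 and 512 in CRI-G1-RS cells, against 296, 346 and 381 in CRI-G1-RR cells (log2 difference 0.37 ± 0.071 SE, limma adjusted p = 0.00121), a value that rested on the probe set read: without probe sets whose name marks shared probes it was -0.16 (limma adjusted p = 0.491), and for the mean of its probe sets 0.09 (0.187). Washc1, the subunit that activates actin nucleation, was lower with 219, 253 and 265 in CRI-G1-RS cells, against 279, 329.6 and 383 in CRI-G1-RR cells (log2 difference -0.38 ± 0.082 SE, limma adjusted p = 0.00261). So WASH complex subunits outside the block differed in both directions. Rabep1, a Rab5 effector, was lower, at a log2 difference of -0.28 (limma adjusted p = 0.0194).

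Partners in RNA processing and translation were higher in 10 cases, lower in 4 and not past the test in 12. Cnot6l, a deadenylase of the CCR4-NOT complex, had the highest value with 182, 281 and 323 in CRI-G1-RS cells, against 41.8, 76.4 and 92.5 in CRI-G1-RR cells (log2 difference 1.66 ± 0.16 SE, limma adjusted p = 5.07e-06). Cnot11, another subunit of that complex, had 724, 820.3 and 842 in CRI-G1-RS cells, against 494, 539 and 579 in CRI-G1-RR cells (log2 difference 0.57 ± 0.057 SE, limma adjusted p = 5.12e-06). Both were higher in CRI-G1-RS cells, where the member Cnot2 was lower. Xpo5, which exports microRNA precursors, and Tufm, the mitochondrial elongation factor that Tsfm recharges, were lower, at log2 differences of -0.51 and -0.28 (limma adjusted p = 0.00146 and 0.00209).

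At the nuclear envelope, 2 partners were higher, 4 were lower and 9 did not pass. Lmnb1, which encodes lamin B1, had 1904, 2014 and 2251 in CRI-G1-RS cells, against 1015, 1173 and 1263 in CRI-G1-RR cells (log2 difference 0.83 ± 0.066 SE, limma adjusted p = 8.12e-07). Lmnb2, which encodes lamin B2, went the other way with 324, 374 and 500.1 in CRI-G1-RS cells, against 471, 524 and 555 in CRI-G1-RR cells (log2 difference -0.44 ± 0.092 SE, limma adjusted p = 0.00232). Ahctf1, a protein that joins the nuclear pore scaffold, was higher, at a log2 difference of 0.64 (limma adjusted p = 8.46e-06). Nup160, a scaffold partner of Nup107, was lower, at a log2 difference of -0.29 (limma adjusted p = 0.0233), but it missed the threshold without CRI-G1-RR replicate 4 or 6 or CRI-G1-RS replicate 4, with adjusted p between 0.0523 and 0.0536, and with median centring (0.0575).

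The chromatin list held 9 higher, 5 lower and 10 not called partners. Hmga1, the paralogue of Hmga2, had 297, 317 and 464 in CRI-G1-RS cells, against 158, 177 and 198 in CRI-G1-RR cells (log2 difference 0.87 ± 0.11 SE, limma adjusted p = 3.04e-05). Nfya, which binds DNA together with Nfyb, had 266, 349.9 and 450.2 in CRI-G1-RS cells, against 165, 206 and 233 in CRI-G1-RR cells (log2 difference 0.73 ± 0.12 SE, limma adjusted p = 2.73e-04). Nfya was thus higher in the cells in which Nfyb was lower. Nap1l4, a relative of Nap1l1, was lower, at a log2 difference of -0.47 and the meiotic gene Sycp2, which was dim, at -0.74 (-1.51 with a pseudocount of 1; limma adjusted p = 2.32e-04 and 0.0155).

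Among partners of the ubiquitin and cell death genes, 3 were higher, 4 lower and 11 not called. Pidd1, the death domain protein that binds Cradd, was lower with 162, 178 and 197 in CRI-G1-RS cells, against 397, 415 and 454 in CRI-G1-RR cells (log2 difference -1.18 ± 0.061 SE, limma adjusted p = 2.18e-08). Ube2v2, a partner of Ube2n in building ubiquitin chains, was higher with 1563, 1749 and 1897 in CRI-G1-RS cells, against 1022, 1077 and 1209.6 in CRI-G1-RR cells (log2 difference 0.65 ± 0.062 SE, limma adjusted p = 3.58e-06). Rbx1, the RING subunit of cullin ligases, was higher, at a log2 difference of 0.65, and Cul2, a cullin, was lower, at a log2 difference of -0.62 (limma adjusted p = 5.86e-06 and 0.00546). Target genes of p53 were listed separately because Mdm2 restrains p53. Of 11 measured, 2 were higher (18.2%, against 21% of all genes), 4 were lower (36.4%, against 18.3%) and 5 did not pass. Nothing is read about p53 from these counts. Aen and Ccng1 were higher, at log2 differences of 0.61 and 0.33, and Cdkn1a and Sesn1 were lower, at -0.37 and -0.36 (limma adjusted p = 8.16e-05, 0.00158, 0.00444 and 0.00479).

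Signalling partners were higher in 5 cases, lower in 5 and not called in 13. Ctdsp1, the paralogue of Ctdsp2, was lower with 235, 279 and 332 in CRI-G1-RS cells, against 462, 473 and 484 in CRI-G1-RR cells (log2 difference -0.72 ± 0.073 SE, limma adjusted p = 5.84e-06). Fgfr3, a receptor upstream of Frs2, and Rap1gap, which switches Rap1 off, were higher, at log2 differences of 0.52 and 0.38 (limma adjusted p = 0.00775 and 0.00714). Fgfr4 was dim and lower, at a log2 difference of -0.71 (limma adjusted p = 0.0381). Its call was lost when CRI-G1-RR replicate 1, 2, 3 or 4 or CRI-G1-RS replicate 3, 4 or 6 was left out, with adjusted p between 0.0683 and 0.0842, and with a pseudocount of 1 (0.07). Its CRI-G1-RS mean of 9.34 lay under the pseudocount of 16, and the size of its difference depended on it.

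Of the surface partners, 6 were higher, 1 was lower and 13 were not called. Atp2b2, a calcium pump of the same family as Atp2b1, had 388, 404 and 449 in CRI-G1-RS cells, against 84.5, 118 and 148 in CRI-G1-RR cells (log2 difference 1.68 ± 0.091 SE, limma adjusted p = 3.11e-08), the largest difference of all partners tested. Bgn, a matrix proteoglycan related to Dcn, was higher, at a log2 difference of 0.98, and the guidance receptor Robo2 was lower, at a log2 difference of -0.61 (limma adjusted p = 0.00625 and 6.01e-04). In the enzyme list, 4 were higher, 4 lower and 7 not called. Metap1, the counterpart of the unmeasured member Metap2, was lower with 1494, 1581 and 1638 in CRI-G1-RS cells, against 2295, 2485 and 2811 in CRI-G1-RR cells (log2 difference -0.63 ± 0.055 SE, limma adjusted p = 1.75e-06). Nt5dc2 was dim, with CRI-G1-RS signals of 1.80 to 13.8 under the pseudocount of 16, and it was lower at a log2 difference that was -1.38 with that pseudocount and -2.60 with 1, and Chsy1, a chondroitin synthase, and Nudt3, a relative of Nudt4, were higher, at log2 differences of 0.63 and 0.62 (limma adjusted p = 4.49e-04, 1.68e-06 and 8.51e-05).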

How the data were processed

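Total RNA of 6 CRI-G1-RS and 6 CRI-G1-RR samples was labelled with biotin and hybridized to rat Affymetrix arrays. The authors deposited linear signal intensities per probe set. GCOS 1.4 is the tool named in the submitters' processing notes, whereas the study's methods describe robust multi-chip averaging, so the values its own fit used may differ from these. Their 2% trimmed means per array were equal (250.068 to 250.075), and signals ran from 0.0271 to 11366. The annotation gave 20832 probe sets 1 gene symbol, 436 several and 9831 none, and 20764 of the first were named through RefSeq (GRCr8), which also gave the gene order. Coordinates are given only with the printed RefSeq promoter sequences, because the array files name no genome build.

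Signals were quantile normalized between arrays, log2 values were taken after adding 16, and limma 3.58.1 in R 4.3.3 was fitted with cell type as the only term, with Benjamini-Hochberg adjustment over 31099 probe sets. The script was tested on simulated data. The median log2 difference of all probe sets was 0.01. Each gene took its brightest probe set of a single symbol. The number of arrays limits the precision.

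The members and the gene lists were chosen with earlier results of these data known. Every member is named. Line values are given for the 12 bright members of lowest and the 6 of highest log2 difference, the 2 brightest of each functional group, and up to 2 partners in each direction per list. Of unlisted genes, the 4 lowest and 4 highest are named. Other members and the border genes fell outside that rule where signals are given. Alternatives were another centring, no further normalization, pseudocounts of 1 and 64, and a filter at a mean signal of 50. Further ones were the mean of all probe sets, other bright limits, an intensity trend, array weights, a replicate block and leaving out each array. Another left out probe sets whose name (_s_, _x_ or _a_) marks probes shared by transcripts or by genes.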

Additional observations from a re-analysis of the deposited data

Results flagged for a closer look

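Of 180 groups of 6 arrays (90 named genes in both lines), 16 held 1 array far from the other 5, where chance flags about 1 in 20 groups. Each is given as the deposited signal of that array beside the nearest other array of its line. Among the members, CRI-G1-RS replicate 5 was high for Washc3 (1084, next 1011) and low for Kitlg (55.1, next 68.3), replicate 6 was low for Lta4h (735, next 835), and replicate 4 was low for Dyrk2 (522, next 646). CRI-G1-RR replicate 1 was low for Xpot (455.5, next 549) and high for Hmga2 (10.7, next 4.83). None of these arrays closed the gap between the lines for Washc3, Kitlg, Lta4h, Dyrk2 or Xpot, and Hmga2 overlapped in any case.

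Among the unlisted genes of the stretch, CRI-G1-RS replicate 4 was high for Chpt1 (381, next 310.4), and replicate 2 was low for Slc6a15 (229.7, next 317). Among the partner genes, CRI-G1-RS replicate 2 was low for Cnot11 (724, next 810.2) and high for Xpo5 (314, next 235) and Hmga1 (464, next 348), replicate 6 was high for Robo2 (46.6, next 36.1), and replicate 4 was low for Cul2 (101, next 143). CRI-G1-RR replicate 1 was high for Sycp2 (47.5, next 30.8) and low for Rap1gap (158, next 198), and replicate 2 was low for Robo2 (42.0, next 63.6).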

How the results depend on the processing

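No count or median changed direction under the alternatives tried. Of the named genes, Cpsf6 was -0.54 for the mean of all its probe sets and -1.10 without probe sets whose name marks shared probes, against 0.49 on its brightest one. Appl1 was -0.16 without such probe sets (0.37 on its brightest one), and Grip1, which was near 0, was -0.51 for the mean of its probe sets and -0.0012 without CRI-G1-RS replicate 2. The settings that combine or drop probe sets were added for single genes after seeing the data. The count of bright members lower in CRI-G1-RS cells was 36 to 38 of 41 when each array was left out in turn, and the count without overlap was 35 to 36. Snrpf was lost without CRI-G1-RR replicate 2 or CRI-G1-RS replicate 1, and Vezt passed without CRI-G1-RR replicate 2 or 3 or CRI-G1-RS replicate 6. Over the same fits the median log2 difference was -1.05 to -0.99 for bright members, -0.21 to -0.14 for dim members and -1.004 to -0.947 for unlisted bright genes of the stretch. Partner genes past the threshold numbered 63 to 81 (75 with all arrays), with 39 to 48 higher and 23 to 33 lower, and all probe sets numbered 9162 to 10010. With all arrays, Vezt passed with a filter at a mean signal of 50, a pseudocount of 64, an intensity trend or array weights.

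The medians moved with the scale. A pseudocount of 64 gave -0.96 for bright members, -0.083 for dim members and -0.88 for unlisted bright genes, and a pseudocount of 1 gave -0.28 for dim members. The mean of all probe sets of a gene gave -0.89, -0.25 and -0.92 for these 3 groups. The dim median was -0.89 over the 3 dim genes left by a filter at a mean signal of 50, -0.088 without probe sets whose name marks shared probes, -0.088 with a bright limit of 50 and -0.33 with a limit of 200. The cause was not tested.

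The labels tie no replicate number to a pair of passages, and the deviations of same-numbered samples from their line means correlated at -0.04 to 0.21, so the numbers were not taken as pairs. Of 6 CRI-G1-RS samples, 2 correlated best with the CRI-G1-RR sample of their own number. With a replicate block for same-numbered samples, 9204 probe sets passed and 37 bright members were lower, as without it. The calls of Rabep1 (adjusted p = 0.0575), Nup160 (0.0917) and Fgfr4 (0.0841) were lost with the block in limma. For the mean of all probe sets of a gene Appl1 did not pass (0.187). Without the block, Nup160 was lost under median centring (0.0575) and Fgfr4 with a pseudocount of 1 (0.07). The low signals of the dim members limit what their differences show.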
